A study of Homo sapiens with 12 samples.

Results

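The genes described here encode the nuclear subunits of the mitochondrial respiratory chain and the ATP synthase. They were taken by name: the NDUF genes of complex I, the SDHA to SDHD genes of complex II, the UQCR genes and CYC1 of complex III, the COX4 to COX8 genes of complex IV and the ATP5 genes of complex V, with 51 names of numbered pseudogenes left out. The rule used no measured value. It gave 86 gene names of the 56537 in the table, and 78 of them were among the 16680 names that passed a filter on low values (summed FPKM above 0.5 in at least 3 libraries). Of those 78, 37 of 38 names belonged to complex I, 4 of 4 to complex II, 9 of 9 to complex III, 10 of 16 to complex IV and 18 of 19 to complex V.

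RNA was sequenced from HCT116, an established human colorectal carcinoma cell line, at 4 time points with 3 biological replicates each. The 0 h cultures were kept at 21% oxygen, and the others spent 1 h, 2 h or 24 h at 1% oxygen. Poly(A) RNA was read with strand-specific paired ends. All 12 libraries came from the same line in the same medium, and hypoxia began 24 h after plating. No culture kept at 21% oxygen for a further 24 h was analysed here, so time at 1% oxygen and time in culture cannot be told apart. The level of a gene is its summed FPKM, that is sequenced fragments scaled to transcript length and to the mapped fragments of the library, added over all transcripts of a gene name that matched or shared splice junctions with the annotation.

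The hypoxia reference genes CA9, NDRG1, PDK1, BNIP3, VEGFA and LDHA were all higher at 24 h than at 0 h, with log2 changes from 1.72 to 5.34. The epithelial markers EPCAM, KRT8, KRT18 and CDH1 were present in every library (at least 6.06 FPKM), whereas VIL1, CDX1 and LGALS4 stayed at or below 0.424 FPKM. PTPRC, PECAM1, COL1A2 and DCN, markers of leukocytes, endothelium and fibroblasts, did not exceed 0.0315 FPKM, and COL1A1 lay between 1.58 and 8.79 FPKM. PECAM1 was listed at 0 in every library and the other 3 low markers in most, and an exact 0 can be a failed estimate here. Some of these markers moved at 24 h with no overlap between the groups. COL1A1 stood at 1.92 ± 0.206 FPKM at 0 h and 6.87 ± 1.67 at 24 h, and CDH1 at 7.42 ± 0.731 and 26.3 ± 1.72 (SD, n = 3), while EPCAM was lower at 24 h (280 ± 39.1 and 229 ± 15.6). KRT8 and KRT18 overlapped, and the part of these markers in the results was not tested. The third 24 h library stood apart from the other two. It was the lowest of the 24 h libraries in 64 of the 78 tested members (82.1%) against 39.7% of all genes tested, and results that rest on it are given without it as well. The files hold FPKM and no counts, so the number of fragments behind a value was not computed, and the spread between replicates is the measure of precision.

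Complex I takes electrons from NADH and complex II takes them from succinate. Both pass them through ubiquinone to complex III, and cytochrome c carries them on to complex IV, where oxygen is reduced to water. Proton pumping by complexes I, III and IV drives complex V, the ATP synthase. Complexes I, III, IV and V are built from subunits of the nuclear and the mitochondrial genome, and complex II from nuclear subunits alone. Some nuclear subunits have paralogues that are used in particular tissues or, for COX4I2 and NDUFA4L2, are known as hypoxia-inducible.

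The 250 bases upstream of the annotated start are printed for 3 members on which the results below turn: NDUFV3, the member called at 24 h; ATP5G1, the c subunit gene with the lowest change at 24 h; and UQCRC1, the member with the highest change. They are RefSeq sequences of build GRCh38.p14, 5′ to 3′ on the gene's strand. Capitals mark the hypoxia response element cores ACGTG and GCGTG on either strand.
NDUFV3 (chr21:42893059-42893308, plus strand): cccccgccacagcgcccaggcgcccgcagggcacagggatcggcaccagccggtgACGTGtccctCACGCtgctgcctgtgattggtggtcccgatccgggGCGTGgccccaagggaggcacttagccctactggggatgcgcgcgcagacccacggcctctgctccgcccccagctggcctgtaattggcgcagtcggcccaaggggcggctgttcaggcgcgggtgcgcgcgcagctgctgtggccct
ATP5G1 (chr17:48892537-48892786, plus strand): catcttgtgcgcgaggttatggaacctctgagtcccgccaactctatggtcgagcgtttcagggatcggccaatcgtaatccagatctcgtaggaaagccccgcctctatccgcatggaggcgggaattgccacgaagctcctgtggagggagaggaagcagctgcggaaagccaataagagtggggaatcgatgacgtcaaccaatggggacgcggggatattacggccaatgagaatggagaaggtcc
UQCRC1 (chr3:48609647-48609896, minus strand): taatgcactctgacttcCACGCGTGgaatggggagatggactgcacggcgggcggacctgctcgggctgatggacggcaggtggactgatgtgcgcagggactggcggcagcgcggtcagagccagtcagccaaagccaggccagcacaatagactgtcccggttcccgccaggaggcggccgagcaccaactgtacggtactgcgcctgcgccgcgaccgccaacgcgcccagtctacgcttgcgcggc

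NDUFV3 held 3 cores, starting 195, 185 and 149 bases before the start. UQCRC1 held 2 overlapping cores, starting 233 and 230 bases before it, and the ATP5G1 window held none of these letters but 4 matches to CCAAT. Of the 86 members, 66 matched a RefSeq entry, with 78 promoters in all. Either core was found in 52.6% of the member promoters, in 51.7% of the 18225 promoters of all genes tested and in 43.2% of all 35116 promoters. The letters GCGC, any base, then TGCGC, bound by the respiratory gene activator NRF1, were found in 17.9% of the member promoters against 7.29% of those of all genes tested. CCGGAAG, an ETS-family site, was found in 23.1% against 11.7%, and AAGATGG, a YY1 site, in 7.69% against 3.39%. CCAAT was found in 33.3% against 32.7%. All letters were searched on both strands, and a match is a description of the sequence alone.

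At 21% oxygen 76 of the 78 tested members stood above the median of all genes tested (8.35 FPKM). The median member of complex IV stood at 238 FPKM at 0 h, of complex V at 181, of complex III at 166, of complex I at 91.7 and of complex II at 87.0 FPKM. ATP5B, which encodes the catalytic beta subunit of the ATP synthase, was the highest at 731 FPKM. COX7C (539 FPKM) and COX4I1 (532 FPKM) led complex IV, UQCRB (465 FPKM) led complex III, and NDUFB9 (430 FPKM) led complex I. NDUFV3, an accessory subunit of the NADH-oxidising arm, was the lowest complex I member that passed the filter (22.3 FPKM).

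After 1 h and 2 h at 1% oxygen no change of a subunit gene passed the test. A gene was called where its absolute log2 change was above 1 with an adjusted p under 0.01 (limma across all genes, Benjamini and Hochberg), and 0 of 78 members were called at 1 h and 0 at 2 h, against 0.006% and 0.018% of all genes. Without the threshold on size, at an adjusted p under 0.05, the counts were again 0 and 0 against 0.006% and 0.312%. At an unadjusted p under 0.05 there were 0 members at 1 h and 5 at 2 h, against 4.61% and 15.3% of all genes. NDUFV3 had the lowest unadjusted p of these at 2 h, with a log2 change of −0.41 (SE 0.12) and an adjusted p of 0.178.

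At 24 h the subunit genes had moved by small amounts and mostly down, and the complexes differed. A single member, NDUFV3, was called against 0 h (1 of 78, 1.28%), where 18.3% of all genes were called. UQCRQ was called as well without the first 24 h library, which made 2. At an adjusted p under 0.05 alone, 45 of 78 members had changed, 5 higher and 40 lower, against 55.3% of all genes, of which 25% were higher and 30.3% lower. The 45 members are 57.7% of those tested, a share close to the background, whereas 51.3% of members were lower and 6.41% higher. The deposited FPKM values of all 24 h libraries lay below all 0 h libraries in 39 members and above them in 8, where 32.8% and 27.6% of all genes did so. When the values were rescaled to TPM, which gives the transcripts of each library the same total, the median of all genes moved from −0.05 to −0.67 and the same 78 members gave 0 higher and 47 lower, against 3.32% and 41.1% of all genes. Below, TPM is over all transcripts unless stated. TPM without the transcripts under 300 bases moved the median of all genes to −0.14 and gave 4 higher, NDUFS4, UQCRC1, COX6C and ATP5G2, and 48 lower, against 21.4% and 34.4% of all genes.

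**Figure D1:**
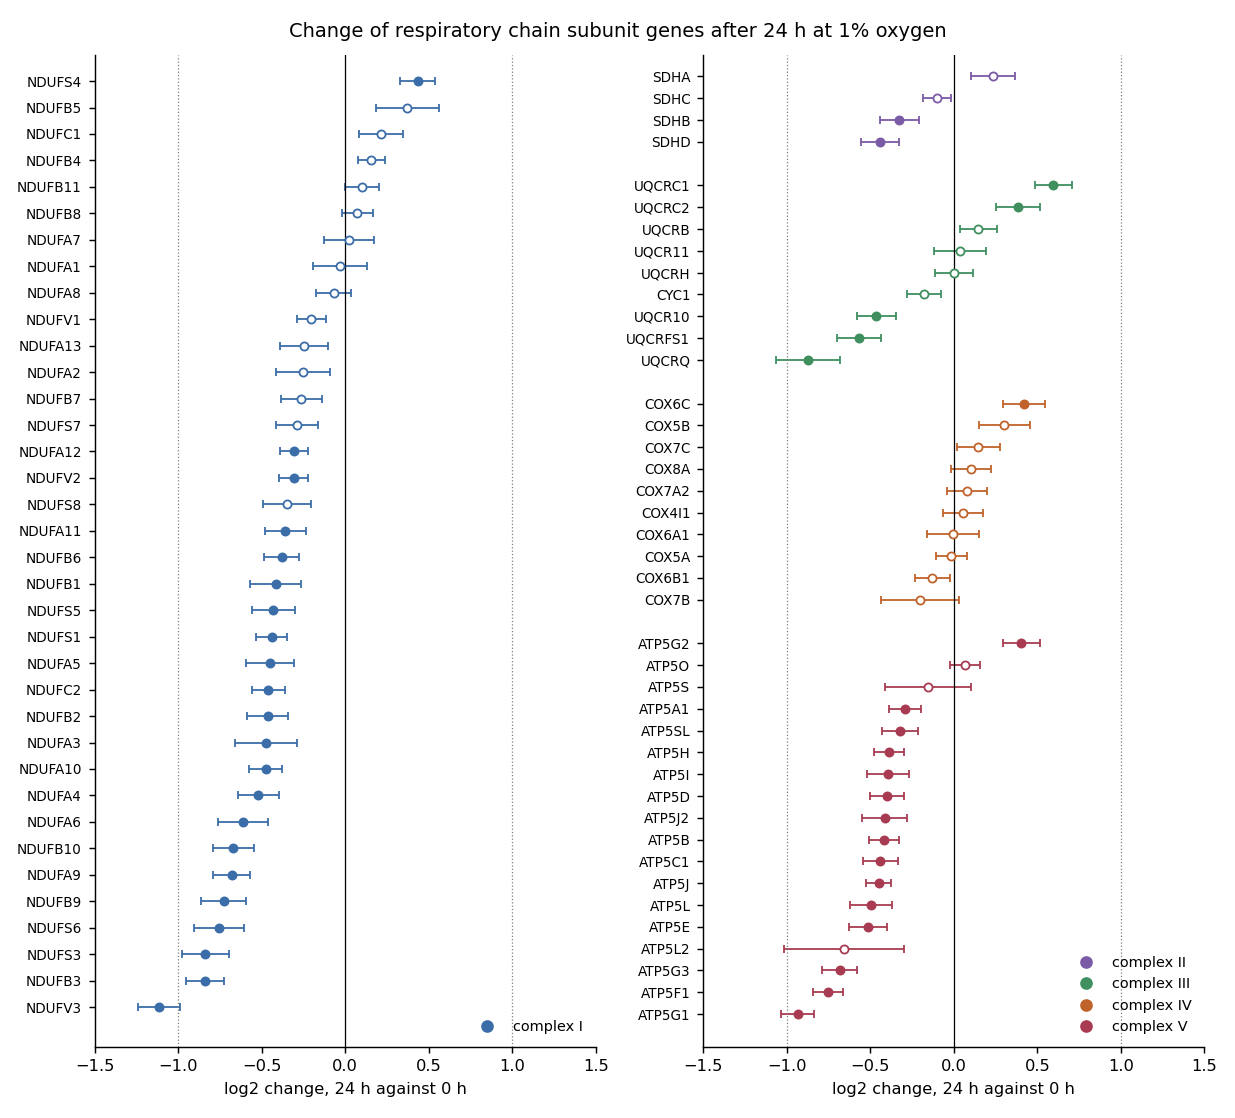
Fitted log2 change of the tested members at 24 h against 0 h, with its standard error (bars), complex I on the left, where 1 tested member is not drawn, and complexes II to V on the right. Filled points passed an adjusted p under 0.05 and dotted lines mark a log2 change of −1 and 1; NDUFV3 is the point beyond −1, and the 5 filled points to the right of 0 change sign when all transcripts are rescaled to TPM.

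The complexes fell into an order. The median log2 change at 24 h was −0.42 in complex V, −0.36 in complex I, −0.21 in complex II, 0.00 in complex III and 0.07 in complex IV, beside −0.05 over all genes tested. In complex V 14 of 18 members fell and 1 rose, and in complex I 21 of 37 fell and 1 rose. In complex II 2 of 4 fell, in complex III 3 of 9 fell and 2 rose, and in complex IV none of 10 fell and 1 rose. Complexes were assigned by name. NDUFA4, which fell and is now counted as a complex IV subunit, is in complex I in all counts, medians and differences. Over all genes 30.3% fell and 25% rose, and the shares of complexes II and III rest on 4 and 9 genes. Within each library, the complex IV median minus the complex V median was 0.56, 0.47 and 0.35 at 24 h and between −0.06 and 0.09 in the other 9 libraries. The complex IV median minus the complex I median was 0.47, 0.45 and 0.38 at 24 h and between −0.08 and 0.13 before. These differences cancel a factor shared by all genes of a library, and no p is given for them because the members were grouped with results of these data known.

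The level of each complex at 24 h rested in part on the third 24 h library. The complex IV median from the 0 h mean was 0.26 and 0.16 in the first and second 24 h libraries and −0.20 in the third, where all 10 members were at their lowest 24 h value. In complex III it was 0.08, 0.10 and −0.36. Without that library the fitted medians were 0.21 in complex IV, 0.15 in complex III, −0.13 in complex II, −0.26 in complex I and −0.32 in complex V, and 7 members were higher and 33 lower. Relative to the median of all genes, complex IV was 0.12 above it with the deposited values and 0.13 below it after rescaling to TPM, and complex III was 0.05 above and 0.19 below. When the TPM scaling left out transcripts under 300 bases, complexes IV and III stayed above it, by 0.11 and 0.05, and with median-of-ratios scaling by 0.13 and 0.06, whereas complexes I, II and V were below it under every scaling tried.

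**Figure D2:**
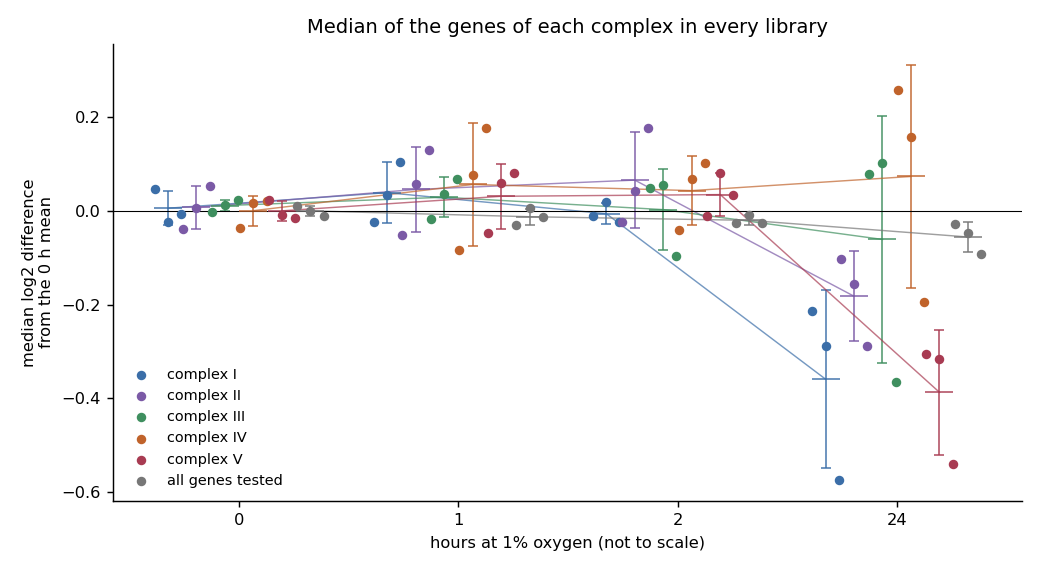
Median log2 difference from the 0 h mean over the tested genes of each complex, for each of the 12 libraries (points, replicates 1 to 3 from left to right), with the mean and SD of the 3 libraries of each time point (bars); grey points are all genes tested. The points stay near 0 up to 2 h, and at 24 h complexes I and V lie lowest and complex IV highest, with the third 24 h library the lowest in every complex.

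In complex I, the entry point for NADH, the members ranged from −1.11 to 0.43 on the log2 scale. Among its 7 core subunits, which carry the flavin and the iron-sulphur clusters, 3 fell, and they were NDUFS3, NDUFS1 and NDUFV2. Of the 9 accessory subunits of the matrix arm 6 fell and 1 rose, and of the 20 accessory subunits of the membrane arm 11 fell. Over all genes 30.3% fell and 25% rose. The median log2 changes of the core, matrix arm and membrane arm groups were −0.31, −0.45 and −0.37.

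NDUFV3 (ENSG00000160194, chr21:44299754-44333414 in GRCh37) stood at 22.8, 20.9 and 23.1 FPKM at 0 h. It stood at 14.5, 17.2 and 18.5 FPKM at 2 h and at 8.56, 10.2 and 11.6 FPKM at 24 h. The 24 h libraries lay below all 9 others, and the 2 h libraries below all 0 h libraries. Its log2 change at 24 h was −1.11 (SE 0.12, adjusted p = 1.6e-05), a level 2.16-fold lower on the log2(FPKM + 0.5) scale. Most of it lay on a coding transcript of 1575 bases, which went from 17.0 ± 0.6 to 7.4 ± 1.0 FPKM (SD, n = 3).

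NDUFS4, an accessory subunit needed for a stable NADH-oxidising module, was the complex I member that rose. Its FPKM was 95.6, 92.1 and 93.3 at 0 h and 137, 142 and 104 at 24 h, so that the groups did not overlap although the third 24 h library was close to the 0 h level. The log2 change was 0.43 (SE 0.11, adjusted p = 0.0045), and −0.43 when all transcripts were rescaled to TPM. NDUFS3, a core subunit, went from 94.1 ± 6.7 to 53.0 ± 9.6 FPKM (SD, n = 3, log2 change −0.84). NDUFB3 of the membrane arm went from 91.7 ± 3.5 to 51.4 ± 7.2 FPKM (log2 change −0.84). NDUFB9 and NDUFS5, the 2 complex I members with the highest level, fell by 0.73 and 0.43 on the log2 scale, the latter with an adjusted p of 0.0539 without the first 0 h library. NDUFB8, the next by the mean over all 12 libraries, had a log2 change of 0.07 with an adjusted p of 0.537. NDUFB10, which stood at about the same level at 0 h (221 FPKM against 220 for NDUFB8), fell by 0.67 (adjusted p = 5.9e-04).

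Complex II shares its reaction with the citric acid cycle. SDHD, a membrane anchor, had FPKM values of 103, 91.7 and 106 at 0 h, of 136, 113 and 120 at 2 h and of 63.6, 82.6 and 76.0 at 24 h. It fell at 24 h (log2 change −0.44, SE 0.12, adjusted p = 0.0065), with no overlap between the 24 h and the 0 h libraries. SDHB, the iron-sulphur subunit, also fell (−0.33, SE 0.12, adjusted p = 0.033), a call that was lost without the third 24 h library (−0.20, adjusted p = 0.116) or without any single 0 h library (adjusted p from 0.0623 to 0.0933). SDHA, the flavin subunit, stood at 59.1, 60.1 and 64.0 FPKM at 0 h and at 80.4, 67.4 and 68.7 FPKM at 24 h. These groups did not overlap, but its log2 change of 0.23 (SE 0.13) had an adjusted p of 0.155. SDHC, the other anchor, changed by −0.10 (adjusted p = 0.343).

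In complex III the genes of both large core proteins rose, whereas the Rieske subunit and 2 of the 5 small subunits fell. Over all genes 25% rose and 30.3% fell. UQCRC1 (ENSG00000010256, chr3:48636435-48648409 in GRCh37) stood at 160, 167 and 169 FPKM at 0 h and at 288, 249 and 219 FPKM at 24 h. Its lowest 24 h library was above all 9 earlier libraries, of which the highest was 173 FPKM. The log2 change was 0.60 (SE 0.11, adjusted p = 6.7e-04), and −0.27 after rescaling to TPM, where all genes stood at −0.67. UQCRC2, the second core protein, went from 122 ± 17 to 158 ± 1.2 FPKM (SD, n = 3, log2 change 0.38, adjusted p = 0.027), and its change was −0.48 after that rescaling. UQCRFS1, the Rieske iron-sulphur protein, fell from 90.6 ± 4.3 to 62.0 ± 13.6 FPKM (log2 change −0.57, adjusted p = 0.0030). CYC1, the cytochrome c1 subunit, changed by −0.18 with an adjusted p of 0.150.

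UQCRQ, a small subunit of the complex, had FPKM values of 282, 265 and 227 at 0 h and of 178, 164 and 94.6 at 24 h. Its log2 change was −0.87 (SE 0.19, adjusted p = 0.0021), and the third 24 h library was far below the other two. UQCR10 also fell (−0.46). UQCRB and UQCRH, the small subunits with the highest level, changed by 0.15 (adjusted p = 0.282) and 0.00 (adjusted p = 0.992).

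In complex IV, which consumes oxygen, 1 of 10 tested members changed, against 55.3% of all genes. COX6C passed an adjusted p under 0.05, with FPKM values of 291, 310 and 318 at 0 h and of 468, 446 and 329 at 24 h. Its log2 change was 0.42 (SE 0.12, adjusted p = 0.012), and −0.45 after rescaling to TPM. COX4I1, the subunit through which ATP regulates the enzyme, stood at 542, 538 and 515 FPKM at 0 h and at 644, 589 and 446 FPKM at 24 h. The first and second 24 h libraries were above and the third was below every 0 h library, and the log2 change was 0.06 (SE 0.12, adjusted p = 0.711). Without the third 24 h library COX4I1 and COX7C passed the test as higher (0.21, adjusted p = 0.038, and 0.32, adjusted p = 0.0067). COX6B1, with means of 161 FPKM at 0 h and 148 FPKM at 24 h, passed it under 1 alternative (adjusted p = 0.0418). COX7B had the lowest change of the complex, −0.20 (SE 0.23), with 65.1, 61.0 and 28.6 FPKM in the 24 h libraries. That sign rested on the third library, without which the change was 0.17 (adjusted p = 0.156). NDUFA4, which is named for complex I but is now counted as a complex IV subunit, fell by 0.52 on the log2 scale (adjusted p = 0.0037), from 38.4 ± 3.7 to 26.8 ± 4.3 FPKM.

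The paralogues linked to hypoxia or to other tissues had low values or were listed at 0. NDUFA4L2 did not exceed 0.479 FPKM in any of the 12 libraries, and it made up 0.575% ± 0.273 of the pair with NDUFA4 at 0 h against 1.13% ± 0.468 at 24 h (SD, n = 3; exact permutation test, p = 0.2, adjusted over 7 shares 0.28). COX4I2, COX6A2, COX7A1 and COX7B2 were listed at 0 in every library. An exact 0 in this table can be a failed estimate, since the protein genes of the mitochondrial genome were also listed at 0 in 10 of the 12 libraries, and no level is read from it. COX6B2 reached at most 0.653 FPKM and COX8C 0.140 FPKM. UQCRHL had no row of its own. ATP5L2 made up 4.29% ± 0.157 of its pair with ATP5L at 0 h and 3.87% ± 1.6 at 24 h (exact permutation test, p = 1). With 3 against 3 libraries the smallest p of this test is 0.1.

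In complex V most genes of the head, the stalk and the membrane part fell, and the c subunit genes parted. All 5 genes of the catalytic F1 head fell (log2 changes from −0.29 to −0.51), with ATP5B at 683, 756 and 755 FPKM at 0 h and at 564, 568 and 510 FPKM at 24 h. ATP5A1, with the change of −0.29, missed an adjusted p of 0.05 without the second 0 h (0.0576), the third 0 h (0.0811) or the third 24 h library (−0.24, adjusted p = 0.0517). Of the 4 peripheral stalk genes 3 fell, led by ATP5F1 (−0.75, adjusted p = 2.3e-05), and ATP5O changed by 0.07 (adjusted p = 0.549). All 3 tested small membrane subunits, ATP5I, ATP5J2 and ATP5L, fell (−0.39 to −0.49). ATP5J2 missed an adjusted p of 0.05 without the first 0 h (0.0553), the third 0 h (0.0628) or the third 24 h library, where its change was −0.24 (adjusted p = 0.0572). ATP5S and ATP5SL carry ATP5 names but are not subunits of the enzyme. Without these names the median of the other 16 was −0.43, with 13 lower and 1 higher, against 30.3% and 25% of all genes.

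Subunit c forms the rotor ring of the synthase, and the genes ATP5G1, ATP5G2 and ATP5G3 encode the same mature protein with different targeting peptides. ATP5G1 (ENSG00000159199, chr17:46970127-46973233 in GRCh37) stood at 199, 183 and 184 FPKM at 0 h, at 233, 187 and 184 at 2 h and at 103, 98.1 and 94.9 at 24 h. Its log2 change at 24 h was −0.93 (SE 0.10, adjusted p = 1.0e-05), and every 24 h library was below every earlier one. ATP5G3 (chr2:176040986-176046438) went from 371, 377 and 382 FPKM to 259, 254 and 195 FPKM, a log2 change of −0.68 (SE 0.10, adjusted p = 1.6e-04).

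ATP5G2 (chr12:54026510-54071192) moved the other way. Its FPKM was 174, 169 and 176 at 0 h and 214, 231 and 243 at 24 h, and it was highest in the third 24 h library, where most members were lowest. The log2 change was 0.40 (SE 0.11, adjusted p = 0.0084), and −0.47 after rescaling to TPM. The summed FPKM of the 3 genes went from 739 ± 8.0 at 0 h to 564 ± 27.5 at 24 h (SD, n = 3).

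As shares of their sum, which do not depend on the scaling, ATP5G1 made up 26.8%, 25.1% and 24.8% at 0 h and 17.8%, 16.8% and 17.8% at 24 h. ATP5G2 made up 23.4%, 23.1% and 23.7% at 0 h and 37.2%, 39.6% and 45.5% at 24 h. ATP5G3 made up 51.0% ± 1.05 at 0 h and 41.7% ± 4.46 at 24 h (SD, n = 3). None of these shares overlapped between the groups, and each had the smallest p the exact permutation test allows (0.1, adjusted over 7 shares 0.233). Near-identical pseudogenes can take reads from these genes. With the FPKM of 7 ATP5G1 pseudogene names and 3 of ATP5G2 added, the differences between the mean log2(FPKM + 0.5) values at 24 h and 0 h were −0.96 and 0.36 instead of −0.93 and 0.40. ATP5E is uncertain for the same reason, since its pseudogene names held 111 FPKM at 0 h against 34.0 FPKM on the gene itself.

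**Figure D3:**
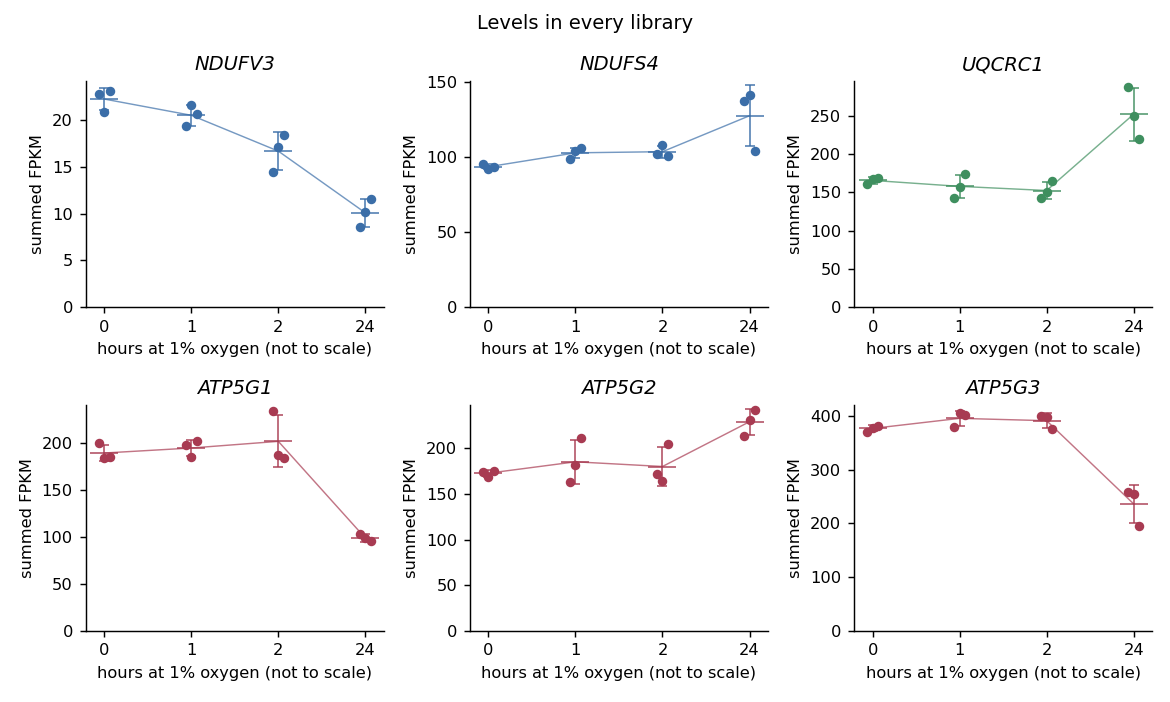
Summed FPKM of NDUFV3, NDUFS4, UQCRC1 and the c subunit genes ATP5G1, ATP5G2 and ATP5G3 in each of the 12 libraries (points, replicates 1 to 3 from left to right), with the mean and SD of each time point (bars). ATP5G1 lies between 94.9 and 103 FPKM in the 24 h libraries and at 183 FPKM or more in all others, while ATP5G2 lies at 214 FPKM or more in the 24 h libraries; the log2 changes of NDUFS4, UQCRC1 and ATP5G2 turn negative after rescaling to TPM.

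The 24 h libraries were also compared with the 2 h libraries, a comparison that shares its 24 h samples with the last one. A single member, ATP5G1, was called at 24 h against 2 h (1 of 78, against 14.7% of all genes), with a log2 change of −1.02 (SE 0.10, adjusted p = 7.1e-06). The count was 0 without the first 2 h or the third 24 h library, 2 without the third 2 h or the second 24 h library and 3 without the first 24 h library. The change of ATP5G1 was −0.91 (adjusted p = 3.0e-05) without the first 2 h library and −0.99 (adjusted p = 3.0e-05) without the third 24 h library, under the size threshold of 1. At an adjusted p under 0.05, 38 members were lower and 3 higher, against 27.4% and 23.2% of all genes. The higher ones were UQCRC1 (0.72), ATP5G2 (0.35) and NDUFS4 (0.29). NDUFV3 had a log2 change of −0.70 in this comparison. The median log2 changes were −0.41 in complex V, −0.34 in complex I, −0.25 in complex II and −0.04 in both complexes III and IV, beside −0.03 over all genes.

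Genes listed here as assembly factors were lower at 24 h by a larger median than the subunit genes. The list also held TACO1 (−1.32, called) and LRPPRC (−0.24), which act on mitochondrial mRNAs, and the counts include them. Of 40 tested assembly factors 13 were called lower (32.5% against 9.51% of all genes) and 0 higher (against 8.76%), and the median log2 change was −0.59. The difference from the subunits was not tested. At an adjusted p under 0.05, 28 were lower and 1, COX20, was higher, against 30.3% and 25% of all genes. BCS1L, the translocase that inserts the Rieske protein into complex III, had 41.1, 35.1 and 31.0 FPKM at 0 h and 8.13, 11.1 and 10.2 FPKM at 24 h (log2 change −1.81, adjusted p = 1.5e-05). LYRM7, a chaperone of the same Rieske protein, changed by −1.51. The complex I factors NDUFAF4 (−1.66), NDUFAF6 (−1.41) and TMEM126B (−1.34) and the ATP synthase factor TMEM70 (−1.46) completed the 6 largest changes. These 6 were picked by size, and all their 24 h libraries lay below all 0 h libraries, as in 32.8% of all genes. The medians of the assembly factors in the 24 h libraries were −0.64, −0.55 and −0.72 from the 0 h mean, so the third library was closer to the others here than for complex III or IV.

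Among 11 tested regulators of respiratory genes 3 were called lower, against 9.51% of all genes, and 0 higher, against 8.76%. The called genes were TFB2M (−1.26) and TFAM (−1.15), which act in transcription of mitochondrial DNA, and PPRC1 (−1.09), a coactivator of the PGC-1 family. TFAM stood at 60.8, 55.1 and 59.5 FPKM at 0 h and at 22.9, 27.5 and 28.0 FPKM at 24 h. TFB1M rose (0.35, adjusted p = 0.0071). GABPB1 (−0.75, adjusted p = 1.8e-04), NRF1 (−0.33) and YY1 (−0.30) fell. GABPA, the partner of GABPB1, changed by 0.05 (adjusted p = 0.827), and PPARGC1A was listed at 0. Of 9 tested related proteins outside the naming rule, 2, CYCS and HIGD1A, were called lower, against 9.51% of all genes. CYCS, the electron carrier cytochrome c, went from 344 ± 33.3 to 144 ± 10.7 FPKM (SD, n = 3, log2 change −1.25). HIGD1A, described as hypoxia-inducible in other cells, went from 85.4 ± 4.3 to 37.4 ± 5.8 FPKM (−1.19). Below that threshold 3 more fell at an adjusted p under 0.05, NDUFAB1 (−0.80), C14orf2 (−0.53) and USMG5 (−0.40), and 2 rose, LONP1 (0.36), the matrix protease that degrades COX4I1, and HIGD2A (0.32). At that adjusted p 5 of the 9 were lower and 2 higher, against 30.3% and 25% of all genes. All 13 protein genes of the mitochondrial genome were listed at 0 in 10 of the 12 libraries, so the mitochondrial subunits could not be compared.

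**Figure D4:**
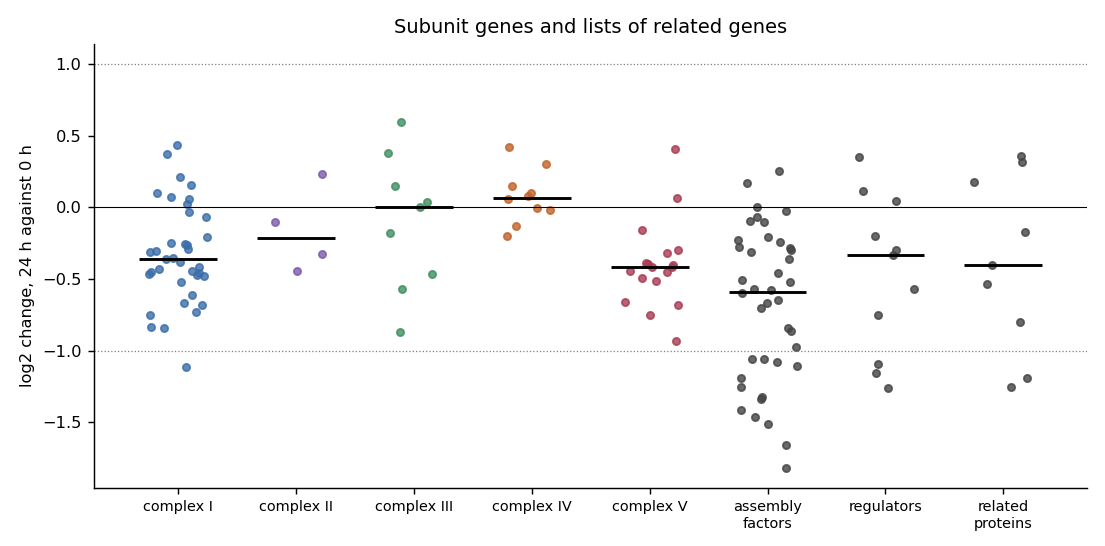
Fitted log2 change at 24 h against 0 h of each tested gene of complexes I to V and of the lists of assembly factors, regulators and related proteins (points, spread sideways at random), with the median of each group (thick line) and dotted lines at −1 and 1. The assembly factors reach −1.81 and have a median of −0.59, below the medians of all 5 complexes.

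Most members are deposited as several transcripts, and 58 had both noncoding transcripts and types for at least 90% of their FPKM. Noncoding here means typed in GENCODE release 44 as retained intron, subject to nonsense-mediated decay or without a defined coding sequence; a transcript with new junctions took the type of its nearest reference. The noncoding share of all 24 h libraries was above all 0 h libraries in 8 members and below in 11, against 12.1% and 6.62% of 9145 genes. No share could pass the exact permutation test, whose smallest p with 3 against 3 libraries is 0.1 (smallest adjusted p 0.305). The members named next were chosen after their values were seen.

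The noncoding share of NDUFB5 went from 33.4% ± 3.9 to 43.5% ± 8.4, most of it on a transcript of 175 bases, a length at which FPKM is unreliable. That of UQCR11 went from 57.7% ± 1.5 to 66.0% ± 1.1. It was lower at 24 h for ATP5L (54.2% ± 3.2 to 44.9% ± 6.8), NDUFV1 (18.4% ± 2.7 to 9.77% ± 2.2) and UQCRC2 (46.3% ± 1.2 to 40.6% ± 1.6). UQCRC1 held 73.5% ± 1.6 of its FPKM on noncoding transcripts at 0 h and 70.2% ± 2.9 at 24 h, so its coding FPKM differed as the sum did, from 43.99 ± 3.84 to 74.7 ± 7.51. For UQCRB and COX7C the largest transcripts were assembled with new junctions and took a noncoding type from their nearest reference, and their shares of 97.7% and 95.2% at 0 h rest on that. NDUFA13, COX7A2, NDUFC1 and ATP5J2 were left out because transcripts without a type held over 10% of their FPKM in at least 1 library.

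**Figure D5:**
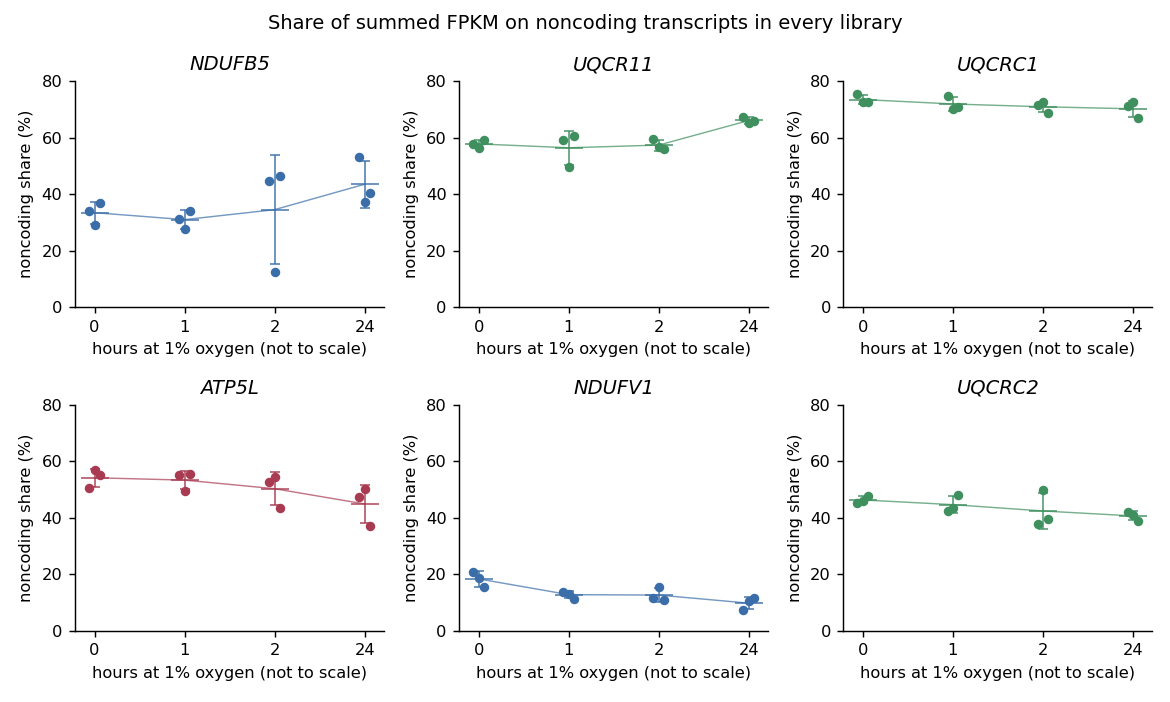
Share of the summed FPKM on noncoding transcripts (percent) for NDUFB5, UQCR11, UQCRC1, ATP5L, NDUFV1 and UQCRC2 in each of the 12 libraries (points, replicates 1 to 3 from left to right), with the mean and SD of each time point (bars). The mean of NDUFB5 is 33.4% at 0 h and 43.5% at 24 h, that of UQCR11 57.7% and 66.0%, and the means of the other genes are lower at 24 h, with UQCRC1 the highest of the 6 genes at 0 h (73.5%).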

How the data were processed

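Transcript FPKM values that the authors deposited for 12 libraries were used. They were made with Cufflinks on hg19 (GRCh37) and ENSEMBL annotation, and the submitters' processing notes also name CASAVA 1.8.2. The transcript length deposited beside them was read as a score in bases. Counts were not used here, so precision rests on the spread between replicates. Transcripts under 300 bases held 57.0% to 87.6% of each library's FPKM, which moves all other values when a library is rescaled to TPM.

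FPKM was summed per gene name over transcripts of class = or j, filtered (above 0.5 in at least 3 libraries) and tested as log2(FPKM + 0.5) with limma 3.58.1 (trend, two-sided, all 12 libraries, Benjamini-Hochberg over 16680 names) in R 4.3.3. Fold changes are on that scale and understate changes of low genes. The code was tested on simulated data. Shares were compared with two-sided exact permutation tests (scipy 1.17.1). P-values measure the spread between 3 replicates per time point, which the labels call biological. Deviations from the group means correlated above 0.1 in every same-numbered pair of 0 h and 2 h libraries (0.246, 0.129 and 0.362). The same held for 1 h and 2 h libraries (0.347, 0.117 and 0.428). Replicate numbers so pair those times, as a pattern in the data and not from the labels. Of the 0 h and 1 h pairs (0.298, 0.0954 and 0.340) the second missed that cut.

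Named by rule were the members called at 24 h, the highest and lowest change and the 3 highest levels of each complex, the paralogue pairs, and up to 6 called genes of each list; other members named were chosen after their values were seen. The members and lists were chosen with earlier results of these data known. Gene positions and transcript types came from GENCODE 44 on GRCh37, and promoters from RefSeq on GRCh38.p14; 20 of 86 members had no matching entry. NDUFA3 was assembled at 10 loci, and its sum covers all of them. The values of 1 complex I member are not reported here; it is counted in the totals and medians. Alternatives tried were other pseudocounts, filters, scalings and transcript sets, only the 6 libraries of a contrast, a fit without trend, a replicate block and leaving out each replicate.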

Additional observations from a re-analysis of the deposited data

Results flagged for a closer look

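The change of ATP5G1 differed between times in hypoxia: the 24 h libraries lay −1.02 from the 2 h libraries on the log2 scale (limma, adjusted p = 7.1e-06), and all 3 of the 24 h libraries were below all 3 of the 2 h libraries. The first 2 h library, at 233 FPKM, was the highest of the 12, and without it, or without the third 24 h library, 0 members were called in this comparison. The log2 change of ATP5G1 was then −0.91 or −0.99 (limma, adjusted p = 3.0e-05 for both), under the size threshold of 1.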

How the results depend on the processing

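The sign of the medians of complexes III and IV at 24 h depended on the scaling, and those of complexes I, II and V were negative under every scaling tried. With TPM over all transcripts they were −1.22, −1.07, −0.87, −0.80 and −1.27 for complexes I to V (all genes −0.67), 16 members were called against 0 h (24.6% of all genes) and 0 against 2 h, and 0 were higher at an adjusted p under 0.05 alone. That scaling turned the sign of NDUFS4 (−0.43), UQCRC1 (−0.27), UQCRC2 (−0.48), COX6C (−0.45) and ATP5G2 (−0.47), each still above the median of all genes. The complex IV median minus that of complex V stayed between 0.44 and 0.54 under all alternatives. Median-of-ratios scaling called 0 members against 2 h. TPM over transcripts of at least 300 bases called 2 against 0 h and 2 against 2 h, and transcripts that matched the annotation exactly called 3 and 3. The share of all genes called under these settings is not given here, so nothing about the members is read from these counts. With a size threshold of 0.5 in place of 1, 16 members were called at 24 h, 15 of them lower (38.4% of all genes, 21.3% lower). Leaving out single replicates gave 1 to 2 calls against 0 h, 0 to 3 against 2 h and 37 to 50 members at an adjusted p under 0.05 alone; UQCRQ was the second call without the first 24 h library. The medians then ranged from −0.45 to −0.26 (I), −0.24 to −0.13 (II), −0.10 to 0.15 (III), −0.01 to 0.21 (IV) and −0.47 to −0.32 (V). Same-numbered pairs correlated by −0.08 to 0.43 (10 of 18 above 0.1, mean 0.15). The mean of −0.08 for other pairs is tied to that value, since the deviations sum to 0 within a time point. Replicate numbers did not pair the 24 h libraries with 0 h, 1 h or 2 h ones throughout. The third 24 h library still correlated with the third 0 h (0.242) and the third 2 h library (0.129). The replicate block called 1 member against 0 h, 1 against 2 h and 0 at 1 h and 2 h, and gave 5 higher and 41 lower at 24 h. The 1 h and 2 h counts were 0 under each alternative. The cause of these shifts was not tested. NDUFV3 was called under every alternative, while SDHB (8 alternatives), ATP5A1 (4), ATP5J2 (4) and NDUFS5 (2) lost an adjusted p under 0.05, with values that kept their sign. UQCRC2 was not named by rule, and alternatives under which it missed that p are given with complex III.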
